A study of Mus musculus with 216 samples.

Results

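The RNA of 12 young kidney libraries was compared with that of 60 young libraries of adrenal gland, heart, hypothalamus, lung and skeletal muscle, across all genes. The 12 libraries were taken by their tissue and age labels and are 12 of the 72 young libraries and of the 216 libraries of the series. All came from male mice of the strain C57B6/J-NIA aged 6 months, with no treatment named in the labels. Tissue was taken at 12 circadian times, 18 to 62 h in steps of 4 h, with 1 library per tissue and time, and each library pooled 2 samples. The series follows daily rhythms of 6 tissues with age, and kidneys of aged (18 months) and old (27 months) mice from the same series enter below as further libraries. Whether the 6 tissues of a time came from the same mice is not stated.

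The kidney filters blood in the glomerulus, where podocytes hold the filter, and then reclaims most of the filtrate along the nephron. The proximal tubule takes up sugar, amino acids, phosphate, bicarbonate and protein through its brush border, secretes organic anions and cations, and makes glucose. The thick ascending limb and the distal convoluted tubule reabsorb salt and divalent ions, and the collecting duct sets water, sodium, potassium and acid balance through principal and intercalated cells.

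Total counts of the young libraries ran from 9.44 to 29.4 M, and those of young kidney from 21.2 to 24.8 M (M, counts in units of 1000000). Levels are given as CPM, a gene's counts per 1000000 counts of its library, and differences as log2 of kidney over another tissue with their standard error (SE). A gene is called kidney-high where the log2 difference was at least 2 and the adjusted p under 0.05 against each of the 5 tissues, and kidney-low where the reverse held. With 1 library per tissue and time, the tests measure the spread between libraries around a 24 h cosine, and the labels do not say whether it reflects separate animals. Levels of whole tissue do not tell fewer cells of a type from less RNA per cell.

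Some libraries stood apart. The young kidney library at 30 held 106 CPM of Havcr1 and 248 CPM of Lcn2, where the medians of the 12 were 1.02 and 1.67 CPM, and that at 38 held 895 CPM of albumin (Alb) against a median of 11.3. The young hypothalamus library at 30 held 72.5 CPM of Slc34a1, where the median of its group was 7.53. Young adrenal libraries held liver-type RNA, with Alb at 5780 CPM at 26 and 3190 CPM at 58, as did heart at 22 (141 CPM) and lung at 38 (214 CPM), and the adrenal library at 54 held 1410 CPM of the adipose gene Adipoq. Without these 8 libraries 950 genes were kidney-high in place of 881. Havcr1, kidney-high and singled out after its values were seen, then stood at 1.87 from adrenal and lost the call. The adrenal library at 30, which was kept, held 11.1 CPM of Havcr1, and the next highest adrenal library 0.577 CPM. Its part in the 1.87 was not tested. Of 136 kidney-high genes named here by list or rule, 135 were called again without the 8 libraries (the exception was Tfap2b, at 1.90). The difference to the closest tissue then grew more than 1.5-fold for 53 of the 136, and by up to 2.89 on the log2 scale, and the value without these libraries is given for several of them. The part of these libraries in a single gene's difference was not tested.

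Of 20682 genes tested, 881 were kidney-high (4.26%) and 367 kidney-low (1.77%). The test was edgeR's quasi-likelihood F test, with p-values adjusted after Benjamini and Hochberg. Against the mean of the 5 tissues 39.8% of all genes were higher and 40.7% lower, with a median log2 difference of -0.10. Against single tissues the share of all genes higher in kidney at adjusted p under 0.05 was 37.7% for adrenal, 43.8% for heart, 41.5% for hypothalamus, 40.1% for lung and 44.1% for muscle. The share lower was 43.2%, 37.0%, 45.1%, 43.8% and 38.7% in the same order. Of the 881 genes, 808 had their lowest kidney library above the highest of the 60 others. Of all 20682 genes tested 1487 did. The 881 were chosen as high in these same libraries, so their count was in large part built into the rule. The remaining 73 of the 881 overlapped at least 1 library. The median difference to the closest of the 5 tissues was 4.06, and 340 genes exceeded 5. The closest tissue was hypothalamus for 297 genes, adrenal for 275, lung for 200, muscle for 60 and heart for 49, and without the 8 libraries adrenal was the closest for 216.

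The kidney-high genes took a large share of kidney RNA. They made up 16.5%, 19.1% and 19.5% of the counts in the lowest, median and highest young kidney library. In the other tissues the medians were 0.997% in lung, 0.858% in adrenal, 0.740% in hypothalamus, 0.418% in heart and 0.356% in muscle. The genes were chosen as higher in these same kidney libraries, so a larger share in kidney than elsewhere was built into the rule. The lowest kidney share was that of the library at 30, and the highest share elsewhere, 2.29%, was that of the adrenal library at 26. Gpx3, a secreted glutathione peroxidase, took the largest mean share of a kidney-high gene at 0.546%, followed by Acsm2 (0.466%), Slc34a1 (0.461%) and Lrp2 (0.324%). These shares depend on transcript length as well as on abundance.

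Both markers of the tissue were high in every kidney library. Slc34a1 (chr13:55399622-55414695), which encodes the sodium phosphate cotransporter of the proximal tubule, measured 4030, 4660 and 4910 CPM in the lowest, median and highest kidney library. Its highest level elsewhere was the 72.5 CPM of hypothalamus at 30, so the groups did not overlap. The log2 difference to hypothalamus, the closest tissue, was 8.81 (SE 0.50, largest of the 5 adjusted p = 6.08e-24, edgeR), and 9.74 without the libraries that stood apart. Umod (chr7:119462708-119479262), the gene of uromodulin made by the thick ascending limb, measured 2150, 2450 and 2990 CPM in kidney and at most 44.5 CPM elsewhere, again in hypothalamus at 30. Its difference to hypothalamus was 8.66 (SE 0.44), and 9.68 without those libraries. Defining genes of the other organs were near absent from kidney. The 6 lung genes summed to at most 2.69 CPM in a kidney library, the 11 adrenal genes to 3.52, the 6 heart genes to 2.80, the 6 hypothalamus genes to 0.88 and the 6 muscle genes to 3.46. Cyp11b2, Nppa and Sftpa1 had no count in any of the 12. The 6 white adipose genes varied more, with sums from 2.42 to 189 CPM.

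**Figure D1:**
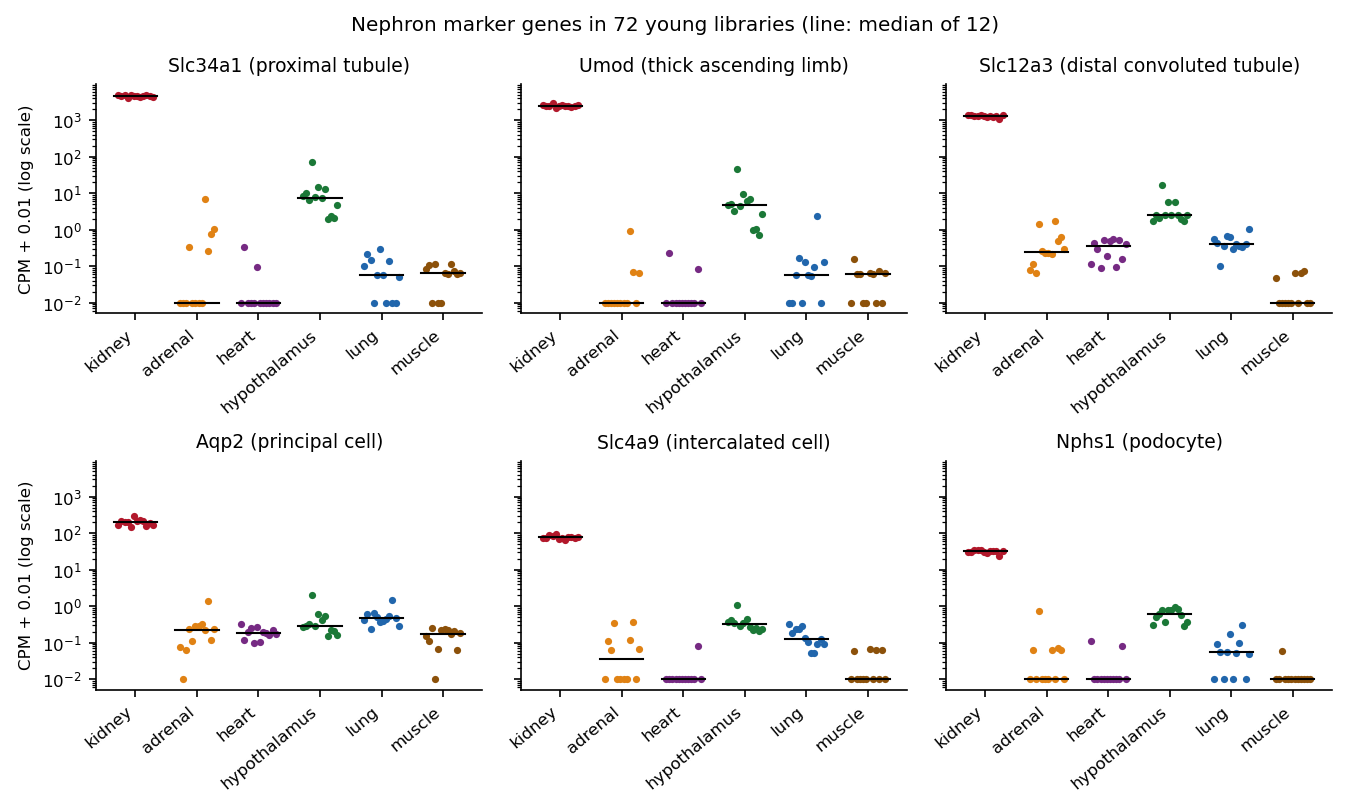
CPM (plus 0.01, log axis) of 6 nephron marker genes in the 72 young libraries; each point is 1 library and each line the median of 12. In all 6 panels the lowest kidney point lies above every point of the other tissues, and the hypothalamus library at 30 carries the highest point outside kidney for Slc34a1 (72.5 CPM), Umod (44.5 CPM), Slc12a3 (17.0 CPM), Aqp2 (2.06 CPM) and Slc4a9 (1.06 CPM).

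Transporters of the proximal tubule were kidney-high almost without exception. Of the 35 listed, 34 were kidney-high, against 4.26% of all genes, and all 35 exceeded the mean of the 5 tissues. The list's median log2 difference from that mean was 11.42 as fitted and 11.15 with tissues that had no read set at 3 counts over their 12 libraries, where all genes tested had -0.10. All 34 had their lowest kidney library above every other young library, as did 1487 of all 20682 genes tested. The 34 were called high in these same libraries, so their count was in large part built into the rule. Their differences to the closest tissue ran from 2.20 for Slc4a4 to 9.44 for Slc17a3, which without the libraries apart was closest to hypothalamus, at 10.46.

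Sugar and phosphate carriers came first. Slc5a2, the glucose carrier SGLT2, measured 567, 616 and 675 CPM in kidney and at most 6.28 CPM elsewhere, with a difference of 9.25 (SE 0.32) to hypothalamus, or 10.11 without the libraries apart. Slc34a3, the second phosphate carrier of the brush border, measured 54.9, 60.6 and 73.1 CPM and at most 1.03 CPM elsewhere. Slc2a2, the basolateral glucose carrier GLUT2, which liver also makes, measured 182, 212 and 290 CPM in kidney and reached 68.8 CPM in adrenal at 26. Its difference to adrenal was 5.69 (SE 0.48), and 8.53 without those libraries.

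Among the organic anion and cation carriers, Slc22a6 (OAT1) measured 887, 1120 and 1200 CPM in kidney. It was found in hypothalamus at a median of 15.5 CPM and up to 29.4 CPM at 42, a library that did not stand apart, and its difference was 6.26 (SE 0.26). Slc22a8 (OAT3) likewise reached 44.9 CPM in hypothalamus at 42, against 396, 443 and 565 CPM in kidney, a difference of 4.18 (SE 0.15). Slc22a12, the urate carrier URAT1, measured 1220, 1490 and 1650 CPM and at most 17.1 CPM elsewhere. Slc22a2 (OCT2) and Slc47a1 (MATE1), which carry organic cations in and out of the cell, differed from the closest tissue by 8.31 (SE 0.19) and 3.64 (SE 0.28).

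Amino acid carriers showed both ends of the range. Slc6a19 and Slc6a18, carriers of neutral amino acids, differed from hypothalamus by 7.36 (SE 0.16) and 9.36 (SE 0.35), the latter by 10.27 without the libraries apart. Slc3a1 and Slc7a9, the heavy and the light chain of the cystine carrier, measured 658, 796 and 827 CPM and 116, 139 and 168 CPM, and did not pass 11.1 and 1.74 CPM elsewhere. Carriers shared with other organs lay at the low end. Slc7a8 reached 68.3 CPM in adrenal and differed from hypothalamus by 2.45 (SE 0.10), and the bicarbonate carrier Slc4a4 measured 1310, 1460 and 1650 CPM in kidney and up to 413 CPM in hypothalamus.

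The receptor complex that takes up filtered protein was kidney-high in full. Lrp2 (megalin) measured 2500, 3350 and 3530 CPM in kidney and at most 119 CPM elsewhere, in lung, a difference of 5.79 (SE 0.27). Cubn (cubilin) measured 578, 739 and 821 CPM and Amn (amnionless), its membrane anchor, 146, 157 and 175 CPM, with differences of 7.25 (SE 0.18) and 4.82 (SE 0.10). The one listed gene that was not kidney-high was Aqp1, the water channel. It measured 770, 877 and 955 CPM in kidney, reached 993 CPM in lung, and differed from heart by 0.29 (SE 0.23, adjusted p = 0.246, edgeR).

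Peptidases and sugar hydrolases of the brush border divided. All 10 were higher in kidney than in each of the 5 tissues at adjusted p under 0.05. The same held for 2848 of all 20682 genes tested. Only 4 of the 10 were kidney-high, namely Ggt1, Mep1a, Mep1b and Treh. Mep1a, a meprin subunit, measured 1590, 1940 and 2070 CPM in kidney and at most 25.9 CPM elsewhere. Treh, the gene of trehalase, measured 115, 149 and 166 CPM and at most 1.42 CPM elsewhere. Lung was the closest tissue for 5 of the other 6. Mme (neprilysin) measured 185, 204 and 225 CPM in kidney and up to 252 CPM in lung, a difference of 0.25 (SE 0.11), Enpep differed from lung by 0.35 (SE 0.13), Anpep by 1.90 (SE 0.10) and Xpnpep2 by 0.40. The list's median difference from the mean of 5 tissues was 3.98.

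Of 27 listed genes of proximal tubule metabolism, 23 were kidney-high and none kidney-low, with a median difference of 9.32. Acsm2, an acyl-CoA synthetase of the mitochondria, measured 3690, 4730 and 5010 CPM and at most 63.3 CPM elsewhere. Kap, the androgen-regulated kidney protein, measured 1790, 2000 and 2280 CPM and at most 121 CPM elsewhere, with a difference of 6.71 (SE 0.55) to hypothalamus, or 7.51 without the libraries apart. Miox, the myo-inositol oxygenase, measured 906, 1060 and 1160 CPM and at most 18.6 CPM. Gatm, the first enzyme of creatine synthesis, also had 178 CPM in hypothalamus at 42 and differed by 2.48 (SE 0.13).

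The 4 listed genes that were not kidney-high were Cyp2e1, Hao2, Hpd and Bbox1. Cyp2e1 measured 1210, 1510 and 1780 CPM in kidney and up to 1520 CPM in adrenal, a difference of 1.46 (SE 0.41). Hao2 reached 340 CPM in adrenal at 42 against 150, 207 and 265 CPM in kidney. Bbox1, the last enzyme of carnitine synthesis, was low in kidney at 0.565, 0.982 and 4.52 CPM, and differed from hypothalamus by -3.45 (SE 0.46). With library totals in place of composition factors, Cyp4b1 and Napsa, whose closest tissue was lung, fell to differences of 1.96 and 1.74 and lost the call.

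Glucose production was shared in part with the adrenal libraries. G6pc, the glucose-6-phosphatase, measured 368, 640 and 754 CPM in kidney and Fbp1, the fructose bisphosphatase, 851, 922 and 1050 CPM. Their highest level elsewhere was in the adrenal library at 26, at 121 and 175 CPM, where Alb was also highest. Differences of G6pc and Fbp1 to adrenal were 6.85 (SE 0.54) and 6.47 (SE 0.54), and without the libraries apart the closest difference was 8.96 and 8.72. Pck1, Pcx and Slc37a4 were not kidney-high. Pck1 measured 1340, 2100 and 2290 CPM in kidney and 3310 CPM in the adipose-rich adrenal library at 54, and without adrenal 5 of the 6 genes were kidney-high.

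**Figure D2:**
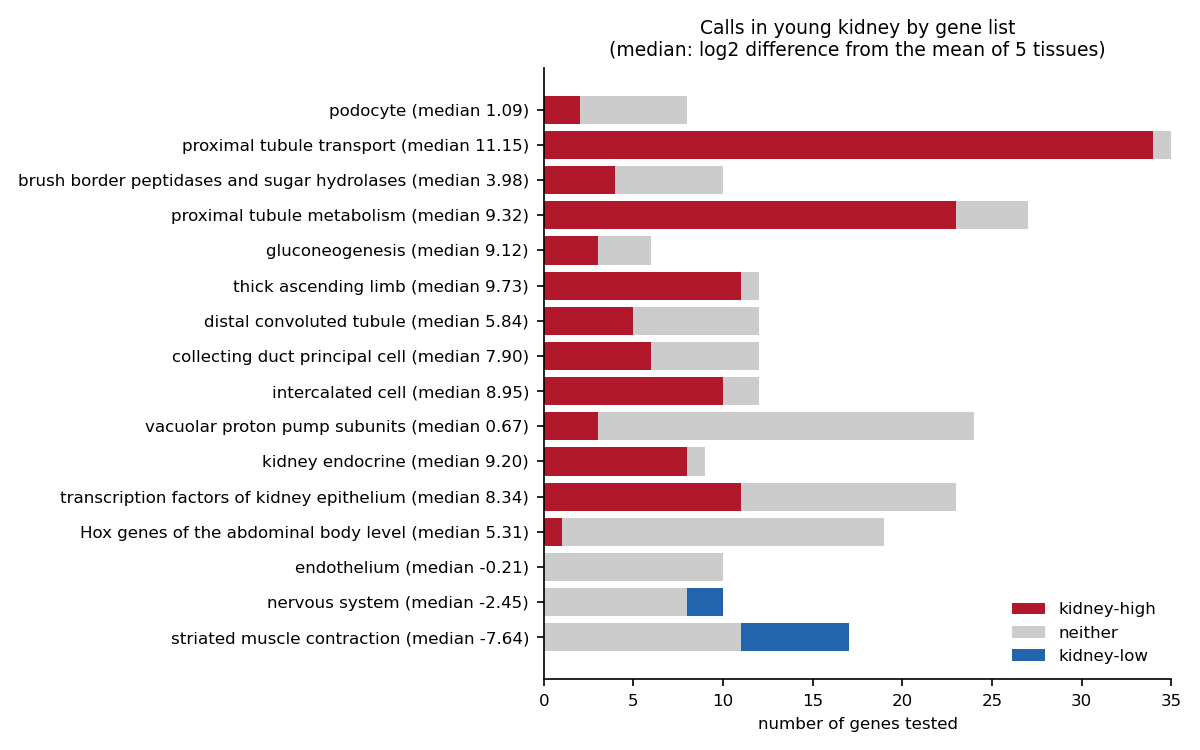
Number of genes of each list called kidney-high (red), kidney-low (blue) or neither (grey) in young kidney; the value beside each list is the median log2 difference of kidney from the mean of 5 tissues, with tissues without a read set at 3 counts. Proximal tubule transport (34 of 35) and thick ascending limb (11 of 12) are nearly all red, while podocyte (2 of 8), proton pump (3 of 24) and Hox (1 of 19) are mostly grey.

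The thick ascending limb was the second segment to stand out, with 11 of 12 genes kidney-high and a median difference of 10.26, or 9.73 with tissues without a read set at 3 counts. Slc12a1, the sodium potassium chloride cotransporter that loop diuretics block, measured 1120, 1490 and 1550 CPM and at most 18.5 CPM elsewhere. Kcnj1 (ROMK), the potassium channel that recycles potassium to it, measured 192, 245 and 275 CPM and at most 2.94 CPM. Bsnd, the subunit of the basolateral chloride channels, measured 65.7 CPM at the median, and the highest library outside kidney held 0.674 CPM. Cldn16 and Cldn19, the claudins of the magnesium pathway, measured 6.74 to 10.8 and 32.7 to 56.9 CPM.

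Several genes of this segment were also found in muscle. Egf, of which kidney is known as a source, measured 1530, 1880 and 2120 CPM in kidney and up to 77.7 CPM in muscle, a difference of 4.36 (SE 0.17). Casr, the calcium-sensing receptor, measured 35.3, 63.3 and 69.9 CPM and up to 15.7 CPM in muscle, a difference of 2.23 (SE 0.16). Ptger3, a prostaglandin receptor, was the exception to the list. It measured 45.4, 79.6 and 91.3 CPM in kidney and up to 130 CPM in adrenal, with a difference of 0.16 (SE 0.20, adjusted p = 0.460, edgeR).

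The distal convoluted tubule list held 5 kidney-high genes of 12, with a median difference of 5.84. Slc12a3, the thiazide-sensitive cotransporter, measured 1040, 1300 and 1400 CPM and at most 17.0 CPM elsewhere, a difference of 8.57 (SE 0.28) to hypothalamus. Trpv5, the apical calcium channel, measured 16.3, 21.4 and 36.6 CPM and at most 0.142 CPM. Tmem52b, Fxyd2 (the gamma subunit of the sodium pump) and Wnk4, a kinase that acts on Slc12a3, differed by 9.17 (SE 0.32; 10.14 without the libraries apart), 7.12 (SE 0.19) and 3.95 (SE 0.13).

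Calb1, a calcium buffer, measured 348, 377 and 422 CPM in kidney and up to 316 CPM in hypothalamus, so it did not overlap, but it differed by only 0.69 (SE 0.083). Pvalb differed from muscle, where it reached 3400 CPM, by -8.26 (SE 0.55). Kcnj10 was lower than in hypothalamus (-2.12, SE 0.12), Trpm6, the magnesium channel, lower than in lung (-0.91, SE 0.14), and Stk39 lower than in heart (-1.54, SE 0.094). Without hypothalamus 8 of the 12 were kidney-high.

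Principal cells of the collecting duct gave 6 kidney-high genes of 12. Aqp2, the vasopressin-regulated water channel, measured 143, 204 and 287 CPM and at most 2.06 CPM elsewhere, with a difference of 9.01 (SE 0.25) to lung. Its receptor gene Avpr2 measured 14.1, 24.3 and 30 CPM and at most 0.284 CPM. Hsd11b2, which inactivates glucocorticoid in cells that respond to aldosterone, measured 117, 137 and 149 CPM and at most 2.26 CPM. Slc14a2, the urea transporter of the inner medulla, measured 18.6, 67.3 and 88.7 CPM, with its lowest level at 34.

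The subunits of the epithelial sodium channel were higher in lung than in kidney. Scnn1a measured 102, 127 and 160 CPM in kidney and up to 611 CPM in lung, and the differences to lung of Scnn1a, Scnn1b and Scnn1g were -1.24 (SE 0.14), -1.25 (SE 0.11) and -1.75 (SE 0.14). Aqp4 (-1.43, SE 0.16) and Nr3c2, the mineralocorticoid receptor (-0.44, SE 0.066), were lower than in hypothalamus, and Elf5 lower than in lung (-2.84, SE 0.17). Leaving out lung raised the count to 10 of 12.

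Intercalated cells gave 10 kidney-high genes of 12, with a median difference of 9.07, or 8.95 with tissues without a read set at 3 counts. Slc26a4 (pendrin), the chloride bicarbonate exchanger of type B cells, measured 81.5, 92.1 and 108 CPM and at most 10.5 CPM elsewhere. Slc4a9, of the same cells, measured 64.1, 76.1 and 93.6 CPM and at most 1.06 CPM. Foxi1, the transcription factor of this cell type, measured 23.2, 28 and 33.2 CPM and at most 0.426 CPM. Slc4a1, the exchanger of type A cells that red blood cells also make, measured 39, 46 and 58.4 CPM in kidney and up to 48.9 CPM in lung at 26, so the groups overlapped. Hbb-bs, a haemoglobin gene, was also highest in that lung library, at 1500 CPM, and its part in the level of Slc4a1 was not tested. The difference of Slc4a1 to lung was 2.52 (SE 0.33) and fell to 1.87 in the first cycle alone, where the call was lost. Hmx2 (1.41, SE 0.16, against hypothalamus) and Kit (-2.78, SE 0.12, against lung) were not kidney-high.

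The vacuolar proton pump, which acidifies lysosomes in all cells and urine in intercalated cells, showed which of its subunits were kidney-high. Of 24 subunit genes tested 3 were, namely Atp6v1b1, Atp6v1g3 and Atp6v0a4, and the list's median difference was 0.67. Atp6v0a4 (chr6:38048483-38124586) measured 275, 302 and 331 CPM in kidney and up to 17.1 CPM in lung, a difference of 5.32 (SE 0.21). Atp6v1b1 (chr6:83743017-83758855) measured 96.4, 105 and 114 CPM and up to 23.4 CPM in lung, a difference of 3.75 (SE 0.19). Atp6v1g3 (chr1:138273738-138289462) measured 26.1, 30.5 and 34.5 CPM and up to 1.36 CPM in lung, a difference of 6.67 (SE 0.22). In none of the 3 did the groups overlap.

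Several sister isoforms of these subunits were higher in another organ. Atp6v1b2 measured 432, 476 and 529 CPM in kidney and differed from hypothalamus by -0.22 (SE 0.055), and Atp6v0a1 differed from it by -2.26 (SE 0.078) and Atp6v1g2 by -5.68 (SE 0.087). Tcirg1, the a3 subunit, was lower than in adrenal (-1.04, SE 0.081). Among isoforms of other subunits, Atp6v0d2 (0.02, SE 0.18) was level with lung within its error, and Atp6v1c2 was lower in kidney than in lung (-1.35, SE 0.092). Atp6v1a, the catalytic subunit that has no sister gene, was 0.71 (SE 0.048) higher than in hypothalamus.

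**Figure D3:**
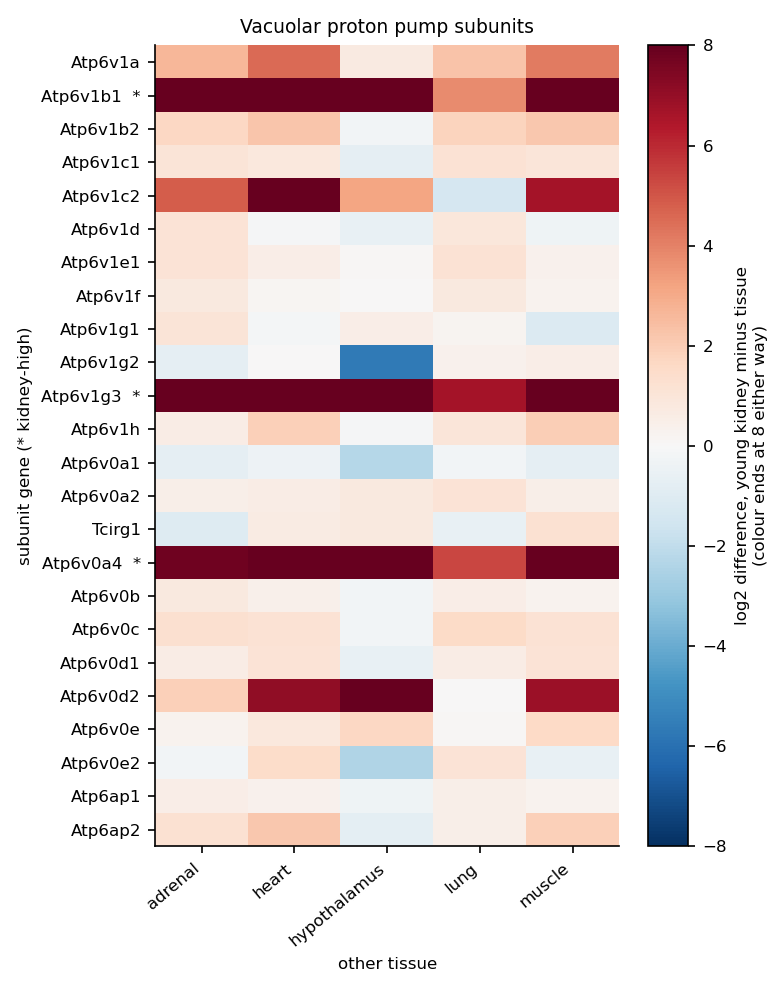
Log2 difference of young kidney from each of 5 tissues (columns) for the 24 proton pump subunit genes tested (rows; an asterisk marks kidney-high); red is higher in kidney, blue lower, and the colour ends at 8. Atp6v1b1, Atp6v1g3 and Atp6v0a4 are red in all 5 columns, with the smallest values in lung (3.75, 6.67 and 5.32).

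Podocyte genes were kidney-high in 2 of 8 cases, with a list median of 1.09. Nphs1 (nephrin) measured 24.1, 31.6 and 34.4 CPM and at most 0.945 CPM elsewhere, a difference of 5.95 (SE 0.25) to hypothalamus. The other 6 were not kidney-high. Podxl (-0.55, SE 0.085) and Clic5 (-2.58, SE 0.11) were lower than in lung, Synpo (-2.40, SE 0.085) lower than in muscle, and Ptpro lower than in hypothalamus (-2.59, SE 0.13). Wt1 measured 8.41, 10.3 and 12 CPM in kidney, and its difference to heart of 0.52 (SE 0.26) did not pass the test (adjusted p = 0.0672, edgeR). None of 10 endothelial genes was kidney-high, and their median was -0.21.

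Of 9 tested genes of kidney hormones and their receptors 8 were kidney-high, with a median of 9.20. Ren1, the gene of renin, measured 36.3, 45.4 and 49.5 CPM and at most 1.39 CPM elsewhere, in adrenal. Kl (klotho), the coreceptor of the phosphate hormone FGF23, measured 905, 1030 and 1110 CPM and differed from hypothalamus, where it reached 22.7 CPM, by 6.24 (SE 0.13). Cyp27b1, which activates vitamin D, measured 3.37, 6.36 and 10.9 CPM, and Cyp24a1, which breaks it down, 37.5, 79.2 and 314 CPM. The receptors Vdr (5.32, SE 0.15) and Pth1r (4.72, SE 0.13) were closest to adrenal. Agtr1a, the angiotensin receptor, was lower than in adrenal (-1.61, SE 0.13). Epo reached at most 0.973 CPM in kidney and was below the filter on low counts.

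Of 23 transcription factors of kidney epithelium 11 were kidney-high, all 23 exceeded the mean of the 5 tissues, and the median difference was 8.34. Hnf4a, a nuclear receptor of proximal tubule and liver, measured 863, 1060 and 1160 CPM in kidney and up to 122 CPM in adrenal at 26. Its difference to adrenal was 7.30 (SE 0.59), and 9.84 without the libraries apart. Pax8 measured 74.8 CPM in the lowest and 116 CPM in the highest kidney library and at most 1.42 CPM elsewhere, and Pax2 35.8, 43.5 and 54.2 CPM and at most 1.03 CPM. Emx1, Emx2, Hnf4g, Tfcp2l1, Tfap2b and Foxi1 were also kidney-high, of which Tfap2b stood just inside the rule at 2.01 (SE 0.22), and at 1.90 without the libraries apart. Lhx1 (1.48, SE 0.14), Pou3f3 (1.46, SE 0.17) and Sim1 (0.53, SE 0.15) were higher than in hypothalamus without reaching 2, and Irx1, Irx2, Tbx2 and Mecom were lower than in lung.

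Hox genes, which keep the position of a tissue along the trunk, were shared with adrenal and muscle. The list was drawn for the abdominal body level, but not all of its members, such as Hoxd3, belong to that level. All 19 exceeded the mean of the 5 tissues, with a median of 5.31, but only Hoxd11 was kidney-high, at 0.604, 1.10 and 1.99 CPM in kidney, with 3 counts in all in muscle, the closest tissue. Hoxa7 (1.51, SE 0.15), Hoxa9 (1.31, SE 0.18) and Hoxd3 (1.89, SE 0.18) were higher than in every other tissue by less than 2. Hoxc10 (-3.04, SE 0.19), Hoxc11 (-4.51, SE 0.19) and Hoxa11 (-2.13, SE 0.19) were lower than in muscle, and Hoxc8 (-3.09, SE 0.15) and Hoxb9 (-1.97, SE 0.24) lower than in adrenal. Without muscle 9 were kidney-high, and without adrenal 6.

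Promoters of kidney-high genes were searched for a sequence known to bind the HNF4 family, in the RefSeq windows from 250 bases before to 50 after a start (build GRCm38.p6, 300 bases each). The letters CAAAGTCCA (HNF4), on either strand, were in the promoters of 15 of 611 matched kidney-high genes (2.45%) and of 79 of all 14105 matched genes (0.560%). A match describes letters and shows no binding. Stretches of 120 bases from the promoters of 3 kidney-high genes with a match, chosen to cover uptake, hydrolysis and metabolism, follow 5′ to 3′ on the gene's strand, with the matched letters in capitals.
Agxt2, HNF4, chr15:10358413-10358532, plus strand: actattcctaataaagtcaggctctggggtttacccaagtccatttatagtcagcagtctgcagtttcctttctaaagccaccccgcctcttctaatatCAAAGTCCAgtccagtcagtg
Slc3a1, HNF4, chr17:85028227-85028346, plus strand: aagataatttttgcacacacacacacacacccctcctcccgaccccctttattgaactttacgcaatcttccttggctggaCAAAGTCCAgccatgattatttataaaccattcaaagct
Treh, HNF4, chr9:44673106-44673225, plus strand, with the letters on the other strand: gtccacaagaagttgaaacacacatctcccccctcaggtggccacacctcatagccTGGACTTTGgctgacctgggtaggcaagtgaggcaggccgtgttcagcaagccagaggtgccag

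The 3 genes encode an aminotransferase of the mitochondria, a chain of the cystine carrier and a brush border hydrolase. Agxt2 measured 96.2, 106 and 120 CPM in kidney and reached 30.8 CPM in adrenal at 26, with a difference of 5.31 (SE 0.48), or 7.32 without the libraries apart. The matched letters began 39 bases before the start in Slc3a1 and 71 in Treh. RefSeq gives Agxt2 more than 1 start, and the same letters began 21 bases before the start used for the printed stretch and 67 before another.

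Beyond the lists, solute carriers as a class were well represented. Of 366 tested genes named Slc or Slco, 89 were kidney-high (24.3%) and 5 kidney-low. The organic ion carriers Slc22a gave 16 of 23, the sodium sugar carriers Slc5a 7 of 11, and Slc16a, the monocarboxylate carriers, 7 of 14. The mitochondrial carriers Slc25a gave 3 of 43. Among enzymes, Acsm gave 4 of 4, the acetyltransferases Nat8 6 of 9, Ugt 6 of 14 and Cyp2 10 of 27. Reads of near-identical members of these families may have been split or dropped in counting, so single members are uncertain. Predicted gene models made up 216 of the 881. Of the 4205 predicted models tested 5.14% were kidney-high, near the 4.26% of all genes.

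Many kidney-high genes lay side by side. Of 804 with a position in the GRCm38 annotation, 243 (30.2%) had a kidney-high gene as a next tested neighbour, and of other tested genes 7.12% did. There were 19 runs of 3 or more, with 73 genes. The longest, chr7:119462708-119662515, held Umod, Pdilt, Acsm5, Acsm2 and Acsm1 with 2 predicted models. Next came a run of the carriers Slc22a19, Slc22a26, Slc22a28, Slc22a29 and Slc22a30 (chr19:7673075-8405111). Atp6v0a4 lay in a run of 3 with Svopl and Tmem213 (chr6:37983739-38124586). Neighbours can share sequence and, where genes overlap, reads.

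By the rule for named genes the 15 with the largest difference were Ugt2b37, Mettl7a2, Mep1b, Trpv5, Slc22a28, Ugt2b38, Clrn3, Lrrc19, Slc17a3, Cyp4a31, Asb9, Slc6a18, Slc22a19, Cyp2j13 and Kcnj1, with differences from 9.88 down to 9.35. For all but Slc17a3, which was closest to adrenal, the closest tissue was hypothalamus. Ugt2b37, a glucuronosyltransferase, measured 162, 200 and 237 CPM in kidney and at most 1.67 CPM elsewhere. Mettl7a2 measured 38.5, 45.5 and 55.5 CPM and at most 0.390 CPM. Clrn3 measured 60.5, 67.0 and 73.3 CPM and at most 0.639 CPM. Without the libraries apart the closest differences of these 15 genes ran from 9.82 (Asb9) to 10.75 (Ugt2b37), with Cyp4a31 at 10.55, Slc17a3 at 10.46, Cyp2j13 at 10.36 and Kcnj1 at 10.34.

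A low level of kidney genes was present in all young hypothalamus libraries, as in all young adrenal and lung libraries. Over 45 tubule transport and thick limb genes, the median level in young hypothalamus libraries was 0.215% of that in kidney, from 0.107% to 1.28%, the last at 30. For adrenal this median was 0.0608%, for lung 0.0264%, for muscle 0.00205% and for heart 0%. The medians for these 45 genes were 0.115% in aged adrenal and 0.122% in aged hypothalamus, and 0.114% and 0.0695% in old. Over the 365 kidney-high genes of at least 100 CPM, the young medians were 1.63% in lung, 1.61% in adrenal and 1.18% in hypothalamus. They were 0.317% in heart and 0.148% in muscle. Whether this RNA was made in hypothalamus or in the other tissues was not tested.

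Of 367 kidney-low genes, 155 had their highest kidney library below the lowest of the 60 others. The 367 were chosen as low in these same libraries, and no such count over all genes is given here. Eef1a2, the elongation factor of muscle and neurons, measured at most 0.161 CPM in kidney, up to 1810 CPM in muscle, and was closest to lung at -7.42 (SE 0.39), or -8.17 without the libraries apart. Prg4 (-6.49, SE 0.90), the gene of lubricin, Myh7 (-6.01, SE 0.56), a slow myosin, Reep1 (-4.57, SE 0.14), Tppp3 (-4.17, SE 0.15), Ramp1 (-3.81, SE 0.19) and Tnik (-3.59, SE 0.16) were all closest to adrenal. Prg4 differed from lung by -6.52 (SE 0.90), where the library at 26 held 267 CPM against a lung median of 2.67. Its lowest lung library held 0.21 CPM and its highest kidney library 1.01 CPM, so the groups overlapped. Without the libraries apart lung was the closest tissue for Prg4, at -6.0. Vtn (vitronectin) measured 0.132, 0.267 and 31.8 CPM in kidney, the last at 38, the library with high Alb. Its difference to lung, the closest tissue, was -4.65 (SE 0.66), and without the libraries apart adrenal was the closest, at -5.27. The difference of Vtn to the closest tissue was -1.25 in the first cycle alone, where the call was lost.

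Striated muscle genes gave 6 kidney-low members of 17, and nervous system genes 2 of 10, against 1.77% of all genes. The medians from the mean of 5 tissues were -7.64 and -2.45. Myh4 reached 29700 CPM in muscle and 0.136 CPM in kidney. Gap43 measured at most 0.177 CPM and Stmn2 at most 1.13 CPM in kidney, and both were kidney-low. Of 10 blood and immune genes, none was kidney-low or kidney-high, and 7 were below the mean of the 5 tissues. Of 7 liver genes Apob and Ttr were kidney-high. Apob measured 329, 393 and 482 CPM in kidney and 868 CPM in adrenal at 26, with a difference of 3.32 to adrenal, or 5.98 without the libraries apart. In the first cycle alone its difference was 1.69 and the call was lost. Ttr reached 230 CPM in kidney and 677 CPM in adrenal at 26, so the groups overlapped, and its difference of 2.11 to adrenal stood just inside the rule. Its call was lost in the first cycle (0.78), in the second cycle (1.5), with no time terms (1.12), with library totals (1.75), with thinned libraries (1.99) and without the adrenal library at 54, while without the libraries apart its closest difference was 3.74, to hypothalamus.

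Young kidney libraries were alike for most of these genes. Over the 632 kidney-high genes with a mean of at least 10 CPM, the coefficient of variation over the 12 libraries was 10.2% at the median and under 20% for 558. It exceeded 50% for Cyp24a1 (74.6%), Cyp4a14 (109%) and Spp1 (97.8%), the last of which was singled out after its values were seen. Cyp4a14, a fatty acid hydroxylase, measured 7.88, 17.3 and 107 CPM, the highest at 30.

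By segment, lists were set against their level in the median library. The 34 proximal transporters ran from 0.847 at 30 to 1.06 at 34, and the 23 metabolic genes from 0.825 at 30 to 1.07 at 58. Thick limb genes were lowest at 34 (0.791), as were principal cell genes (0.801), and intercalated cell genes kept between 0.952 and 1.07. The 2 podocyte genes ran from 0.784 at 58 to 1.30 at 30. Differences in the part of the kidney that was taken and in expression per cell cannot be told apart here.

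The library at 30 was rich in several genes that are known to rise with tubular injury and acute inflammation. In it, 102 genes were at least 4-fold above all 11 other kidney libraries (after adding 1 CPM). The library at 38 had 107 such genes, and each of the others between 0 and 14. Havcr1, whose protein KIM-1 marks injured proximal tubule, measured at most 1.39 CPM in the other 11, Lcn2 (lipocalin-2) at most 2 CPM, and Spp1 (osteopontin) at most 382 CPM against 1980 at 30. C3 measured 745 CPM at 30 and at most 138 elsewhere in the group. These 4 genes were singled out after their values were seen. Havcr1 was kidney-high, at 3.46 (SE 0.60) from lung, but at 1.87 from adrenal without the libraries apart. That fit kept the adrenal library at 30, which held 11.1 CPM of Havcr1. Without the kidney library at 30, 895 genes were kidney-high, 878 of them among the 881.

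**Figure D4:**
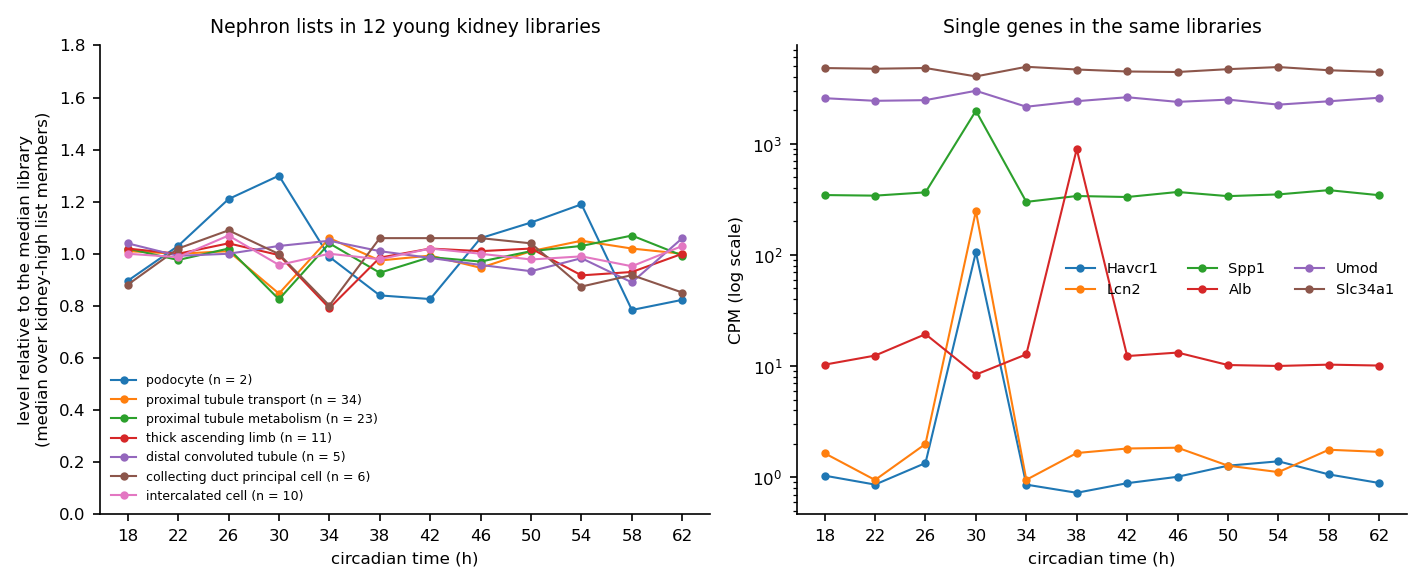
Left, level of the kidney-high members of 7 nephron lists in each of the 12 young kidney libraries, relative to the median library, by circadian time; right, CPM (log axis) of 6 genes in the same libraries. Lists stay between 0.784 and 1.30, while Havcr1 (106 CPM) and Lcn2 (248 CPM) peak at 30 and Alb (895 CPM) at 38.

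Few of these genes were found to vary with the time of day in the fit of the 72 libraries. Of the 881, 23 had a 24 h rhythm in kidney (2.61%), where 3.81% of all genes did, and 71 had an unadjusted p under 0.05. With the 12 kidney libraries fitted alone 164 of the 881 did (18.6%), and 12.2% of all genes, so the count and its order against all genes rest on how the spread is estimated. Nmrk1, a kinase of nicotinamide riboside, had the smallest p, with 63.2, 83.5 and 137 CPM, a log2 amplitude of 0.55 and a peak at 12.4 h (adjusted p = 7.87e-08, edgeR). Cyp24a1 had an amplitude of 1.29 and a peak at 5.3 h (adjusted p = 9.89e-06), with its 2 highest levels, 314 and 181 CPM, at 54 and 26. Palm3 (0.87) and Ndrg1 (0.66) peaked at 23.2 and 22.4 h. Of the proximal transporters only Slc6a19 was called, with an amplitude of 0.56 and a peak at 7.6 h. The rhythm of Havcr1 (adjusted p = 6.22e-05) was gone without the library at 30 (adjusted p = 1.0).

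The same contrast was made in libraries that had no part in choosing the genes. In the 72 aged libraries 796 of 20760 genes were kidney-high (3.83%), of which 735 had been so in young, or 83.4% of the 881 and 92.3% of the 796. In the 72 old libraries 727 of 19441 were (3.74%), of which 664 had been so in young, 75.4% of the 881 and 91.3% of the 727. In both ages 643 were called again (73.0%). With a minimum difference of 1 the counts were 836 and 790, and a difference below 0 to any tissue was seen for 9 and 10 genes. Old kidney libraries were shallower, with a median total of 11.8 M against 22.6 M in young. Aged and old adrenal libraries held more RNA of the kidney-high genes, with a median share of 1.38% and 1.43% of counts against 0.858% in young. The part of both in the lower counts was not tested.

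The change of the kidney difference from young to old was tested as an interaction. Among the 881 genes 7 had a larger and 53 a smaller difference in old by at least 1, where 2.78% of all 21552 genes tested had a larger and 1.15% a smaller one. Their median change was -0.36, against 0.04 over all genes. The genes were chosen on the young libraries that enter this change. Scaled by library totals 34 genes had a smaller difference, with a median change of all genes of 0.20, and with all libraries thinned to the lowest total 6 did, and none a larger one.

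Ccl28, an epithelial chemokine, changed most. It measured 82.7, 121 and 163 CPM in young kidney and 10.5, 16.3 and 42.9 CPM in old, so that the 2 ages did not overlap. Its difference from the mean of 5 tissues went from 8.44 to 3.88, a change of -4.56 (SE 0.24, adjusted p = 6.54e-34, edgeR), with a change of -2.88 in kidney and of 1.68 in the other tissues. With thinned libraries the change was -3.19 (adjusted p = 6.33e-05). Akr1c18, a hydroxysteroid dehydrogenase, went from 8.96, 14.1 and 21.0 CPM to 1.55, 2.20 and 4.69 CPM, and the change of its difference was -2.22 (SE 0.84). Ttr, the gene of transthyretin, fell from a median of 154 to 46.3 CPM in kidney, with a change of -3.19 (SE 0.95). In thinned libraries the changes were -1.58 for Akr1c18 and -2.85 for Ttr, and neither passed the test (adjusted p = 1.0 and 0.142, edgeR).

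Cyp27b1 had a larger difference in old, by 1.93 (SE 0.30, adjusted p = 1.49e-07, edgeR). It measured 5.48, 16.2 and 36.6 CPM in old kidney, against 3.37, 6.36 and 10.9 CPM in young, with kidney higher by 1.43. In thinned libraries the change of Cyp27b1 was 2.18 and did not pass the test (adjusted p = 0.0884, edgeR), and that of Cdh16 was 0.80 (adjusted p = 0.427). For Cdh16 (1.41, SE 0.38), a cadherin of kidney epithelium, most of the change lay in the other tissues, which changed by -1.27. The change in kidney itself was 0.13 (adjusted p = 0.647, edgeR) and did not pass the test. In kidney alone 230 of the 881 genes were lower in old and 63 higher at adjusted p under 0.05. Of all genes 43.1% changed in either direction, and their split by direction is not given here. The 881 were chosen as high in the young kidney libraries that enter this comparison.

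**Figure D5:**
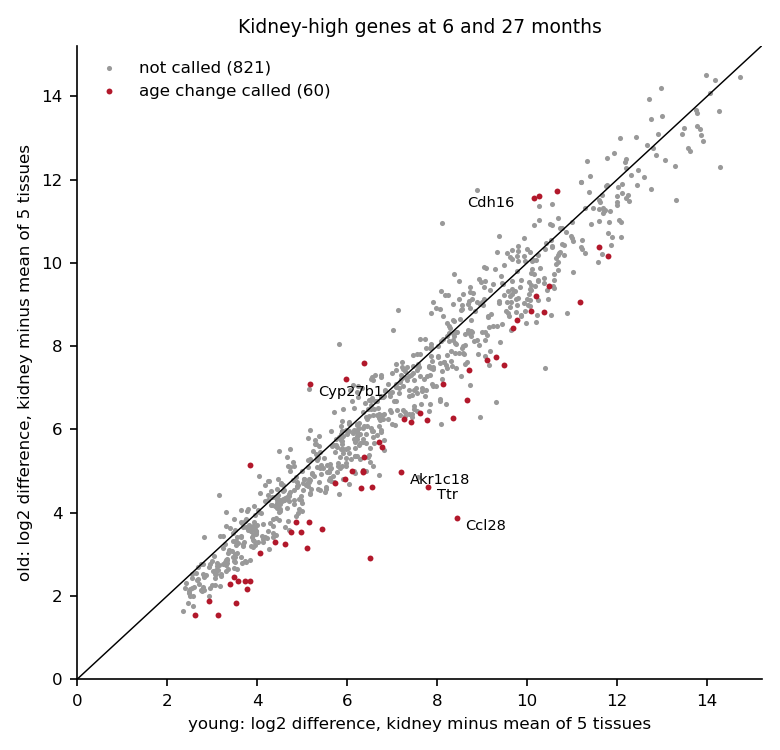
Log2 difference of kidney from the mean of 5 tissues in young (x) and old (y) mice for the 881 kidney-high genes; red marks the 60 with a called change of at least 1, and the line marks equal values. Ccl28 lies farthest below the line (8.44 in young, 3.88 in old), and Cyp27b1 lies above it (5.16 and 7.09).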

How the data were processed

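RNA was extracted with Trizol and made into poly(A) libraries with an Illumina kit, per the labels' protocols. Reads were handled with HISAT2 and HTSeq on GRCm38 (mm10), per the submitters' processing notes, with no versions or settings. The authors deposited whole-number counts per gene name for the 216 libraries. A deposited CPM table was not used, and CPM was computed here from the counts and their totals. Whether counting used strand is not given in the sources used here, so overlapping, antisense and near-identical genes are uncertain.

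Columns were matched to libraries by title. Of 55376 gene names, those with filterByExpr counts of at least 10 by tissue were kept. A model with a mean, cosine and sine (24 h) per tissue was fitted to the 72 young libraries with edgeR 4.0.16 (TMM factors, quasi-likelihood F test, R 4.3.3), two-sided, adjusted after Benjamini and Hochberg over all genes tested. Aged and old libraries were fitted separately, and the age change as an interaction over young and old. DESeq2 1.42.0 was an alternative. Counts for 20682 genes were simulated with equal levels in all tissues, apart from the changed genes, and a dispersion of 0.1 throughout. There 100 of 100 genes raised 8-fold in kidney were called kidney-high, and 0 of 20482 unchanged genes were. Against the mean of the 5 tissues 14 unchanged genes were called. The simulation held no other tissue differences and no libraries that stood apart, so it gives no error rate for the data.

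The members and the gene lists were chosen with earlier results of these data known. Named genes were all list members, the 15 kidney-high genes of at least 10 CPM farthest from their closest tissue, the 8 kidney-low genes farthest from it with at least 10 CPM in every other tissue, the 4 kidney-high genes of smallest rhythm p and the 3 largest called age changes each way. Predicted models were counted and not named, and some list members are counted but not reported by name here. The 66 pairs of young kidney libraries differed beyond sampling noise (lowest chi-square per degree of freedom 3.37), so none was taken as a repeat.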

Additional observations from a re-analysis of the deposited data

Results flagged for a closer look

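The tests of the change with age singled out 18 named kidney-high genes whose difference from the other tissues was not the same in young and old mice (edgeR, adjusted p under 0.05, change of at least 1 on the log2 scale). The difference was larger in old for Cyp27b1 (1.93) and Cdh16 (1.41). It was smaller for Ccl28 (-4.56), Ttr (-3.19) and Akr1c18 (-2.22), and for the transcription factors Pax2 (-2.13) and Hnf4g (-1.44). Among carriers it was smaller for Slc27a2 (-1.26), Slc13a3 (-1.26), Slc22a8 (-1.22), Slc4a1 (-1.21), Slc4a4 (-1.07) and Slc26a4 (-1.01). The values of the others were -1.57 for Acsm3, -1.55 for Casr, -1.35 for Cyp7b1, -1.03 for Amn and -1.01 for Kl, the klotho gene. Old kidney libraries had a median total of 11.8 M counts and young ones 22.6 M, and with thinned libraries 6 kidney-high genes in all had a smaller difference and 0 a larger one.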

How the results depend on the processing

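The count of 881 kidney-high genes lay between 774 (all libraries thinned to the lowest total) and 1124 (a filter with a minimum count of 1) under the alternatives that kept the minimum difference of 2, and was 1479 with a minimum of 1. DESeq2 called 881, of which 877 were shared. With circadian time as a replicate block, since libraries share only their time, 887 were high (878 shared) and 360 low (340 shared). The kidney-low count of 367 was 563 without hypothalamus, 825 with a minimum of 1 and 134 with a minimum of 3. Kidney-high Hox genes (1) were 2 in the first cycle, 6 without adrenal, 9 without muscle and 0 thinned. Gluconeogenesis rose from 3 to 5 without adrenal, distal convoluted tubule from 5 to 8 without hypothalamus, principal cell from 6 to 10 without lung, and kidney-low muscle genes from 6 to 12 without hypothalamus. Rhythmic kidney-high genes were 164 with kidney fitted alone. Larger age changes (7) were 0 thinned and 15 with no minimum, and smaller ones (53) were 34 with library totals, 6 thinned and 189 with no minimum. The sign of the difference from the mean of the tissues turned without adrenal for Atp6v1d (-0.05) and Clic5 (-0.06), without heart for Kit (-0.02), without hypothalamus for Atp6v0e2 (0.34), Clic5 (-1.06), Kdr (-0.76), Plin1 (-0.59) and Tcirg1 (-0.04), without lung for Atp6v1d (-0.07) and Stk39 (-0.15), and without muscle for Kit (-0.30), Stk39 (-0.38) and Tcirg1 (-0.05). These settings change which tissues are compared. The planned fit with no filter could not be fitted in edgeR, and the minimum count of 1 and the fits without libraries that stood apart, other than adrenal at 54, were chosen after seeing the data.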

Other observations

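Libraries of other tissues taken at 30 were also high for the genes that were high in kidney at 30. Of the 102 genes, the library at 30 was the highest of 12 for 66 of 88 that reached 1 CPM in heart, where it was so for 9.66% of all genes. In lung it was so for 46 of 96 (10.9% of all genes), in hypothalamus for 32 of 77 (6.18%), in muscle for 35 of 74 (5.48%) and in adrenal for 51 of 97 (31.9%). Of the 107 genes of kidney at 38, the library at 38 was the highest for 74 of 100 in lung (8.91% of all genes) and for 0 of 107 in adrenal. The genes were chosen on the kidney libraries only, and the labels do not say whether tissues of a time share mice.

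All 6 white adipose genes were called rhythmic in young kidney, with peaks between 18.2 h (Cidec) and 19 h (Retn) and adjusted p from 4.79e-07 (Cidec) to 0.0176 (Cfd) in edgeR, where 3.81% of all genes were called. With kidney fitted alone 12.2% of all genes were called, and all 6 were called again, with adjusted p from 0.00793 (Cidec) to 0.0479 (Cfd) in edgeR. Adipoq measured 0.0465, 3.84 and 24.9 CPM in the lowest, median and highest kidney library. The amount of fat taken with each kidney was not measured.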
